A study of Homo sapiens with 24 samples.

Results

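The genes described here are the core machinery that makes microRNAs and lets them silence mRNAs: DROSHA, DGCR8, XPO5, DICER1, AGO1, AGO2, AGO3, TNRC6A, TNRC6B and TNRC6C. They were chosen by name, as the genes whose symbol in all 4 deposited tables equals one of these names, and they are 10 of the 58174 genes listed. All 10 passed the filter on low values in each line. IGF2BP1 is an RNA-binding protein for which protection of mRNAs from microRNA-directed decay has been described, and the study lowered it with a pool of siRNAs.

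The part of the study used here holds 4 human cancer cell lines. They were transfected with a control siRNA (siC) or the IGF2BP1 siRNA pool (siI1), and total RNA was sequenced. There were 3 libraries per group, 24 libraries in 8 groups. The lines come from cancers of the lung (A549), the ovary (ES2), the skin (MV3, an amelanotic melanoma) and the pancreatic duct (PANC1). Cells were harvested 72 h after transfection, or 96 h after it in PANC1, so the time differs with the line. The knockdown is transient, and IGF2BP1 RNA in siI1 was 0.249 to 0.394 of its level in siC.

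A microRNA is first cut out of its nuclear primary transcript by the Microprocessor, in which DROSHA is the nuclease and DGCR8 the RNA-binding partner. The resulting hairpin is carried to the cytoplasm by exportin 5, the product of XPO5, and trimmed to a duplex by DICER1. A strand of the duplex is then held by an Argonaute protein, which finds mRNAs by pairing of the microRNA seed, usually to the 3'UTR, and binds a TNRC6 (GW182) protein that calls in the deadenylases. Of the Argonautes, AGO2 is best known for its ability to cut a fully paired RNA, and the TNRC6 proteins are large scaffolds with overlapping roles.

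The mRNAs of this machinery are themselves subject to microRNAs, so the seeds of microRNA families and their matches in the members are shown first. The let-7 family was taken because the siRNA target IGF2BP1 and several pathway genes are known let-7 targets, miR-103a and miR-107 because they are known to target DICER1, and miR-340 and miR-30 because the study discusses them. The mature microRNAs below are from RefSeq (GRCh38.p14), with the seed, bases 2 to 8, in capitals. The capitals show that miR-103a-3p and miR-107 share 1 seed and that miR-30a-5p and miR-30c-5p share another.
hsa-let-7a-5p: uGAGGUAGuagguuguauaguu
hsa-miR-103a-3p: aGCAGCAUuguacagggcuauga
hsa-miR-107: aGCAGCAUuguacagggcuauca
hsa-miR-340-5p: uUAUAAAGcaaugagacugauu
hsa-miR-30a-5p: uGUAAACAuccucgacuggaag
hsa-miR-30c-5p: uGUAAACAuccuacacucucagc

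Matches to each seed were searched on the sense strand of the longest annotated 3'UTR of each member (GENCODE 44, hg38), as the letters CTACCTC for let-7, ATGCTGC for miR-103a and miR-107, CTTTATA for miR-340 and TGTTTAC for miR-30. Among the longest 3'UTRs of 9607 protein-coding genes, 11.96% held the let-7 letters, 15.28% those of miR-103a and miR-107, 20.6% those of miR-340 and 19.89% those of miR-30. A match is a run of letters and was not tested as a site. The longest 3'UTRs of the members ran from 941 nt in DROSHA to 16758 nt in AGO3, against a median of 1535 nt over these genes, and a longer sequence holds more matches.

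DICER1 held 5 matches to the shared seed of miR-103a and miR-107 in 4273 nt, which is 1.17 per kb against 0.0848 per kb over all these 3'UTRs. It held none for the other seeds. These 5 stretches are printed because they are the densest set of miR-103a and miR-107 matches among the members. They lie on the minus strand of chromosome 14 in the DICER1 3'UTR, are written 5' to 3', and carry the match in capitals.
chr14:95089452-95089476: cacacctaaaatATGCTGCagattt
chr14:95088851-95088875: atgcttcgtggaATGCTGCatttat
chr14:95087647-95087671: gcagtcctaactATGCTGCgtttta
chr14:95086376-95086400: atttaccatcacATGCTGCagctgt
chr14:95086324-95086348: catacagtaatcATGCTGCagaaat

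TNRC6A held 4 matches to the miR-30 seed in 2417 nt, 1.66 per kb against 0.115 per kb over all these 3'UTRs, and none for the other seeds. They are shown as the densest set of any kind among the members, on the plus strand of chromosome 16.
chr16:24824250-24824274: tcccagtgtcaaTGTTTACtcaagg
chr16:24824541-24824565: tttgaaccttctTGTTTACagattt
chr16:24824581-24824605: gagaaaaaaaaaTGTTTACtcttcc
chr16:24825347-24825371: gtggcttttaacTGTTTACaaatag

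The let-7 letters were found in the Argonaute genes only, once in AGO1, 2 times in AGO2 and once in AGO3, and in none of the 7 other members. In that order this is 0.0915, 0.168 and 0.0597 per kb, against 0.063 per kb over all these 3'UTRs. The match of AGO1 is at chr1:35920680-35920704 and that of AGO3 at chr1:36069076-36069100, both on the plus strand, in 3'UTRs of 10928 and 16758 nt. These 2 are shown because AGO1 fell in all lines and AGO3, its neighbour on the chromosome, did not, and the matches of AGO2 are not printed.
AGO1: tccttattcctcCTACCTCccgccc
AGO3: acctgtcctcacCTACCTCactaaa
For miR-103a and miR-107, AGO2 held 5 matches in 11891 nt, AGO1 and TNRC6B 3 each and AGO3 1. DROSHA, DGCR8 and XPO5, which have the shortest 3'UTRs of the set, held no match to any of these seeds.

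Levels are given in FPKM, fragments per kilobase of gene relative to the scaled size of the library. A library of A549 held 3105215 to 4553326 reads assigned to genes, 1 of MV3 15572492 to 20082702, and those of ES2 and PANC1 from 6421764 to 8472851, so a given level rests on most reads in MV3 and fewest in A549. IGF2BP1, the knocked-down gene, lay lower in siI1 than in siC without overlap in each line, with log2 fold changes from -1.83 (PANC1) to -1.32 (A549). Keratins were high in A549 and PANC1 siC (KRT8 at 512 and 717 FPKM, KRT18 at 162 and 201, KRT19 at 117 and 617). CDH1 was at 18.4 FPKM in A549 siC and 4.55 in PANC1 siC, but EPCAM was at 1.17 and 3.59. Of the duct genes in PANC1 siC, SOX9 was at 18.2 FPKM, PDX1 at 1.70 and CFTR at 0.0155. SOX9 was also at 8.06 FPKM in A549 siC, 22.5 in ES2 siC and 12.2 in MV3 siC. The lung genes NKX2-1, SFTPB and SFTPC were listed at 0 in A549 siC. In MV3 siC the melanocytic genes SOX10 and TYR were at 0 and PMEL and MLANA at 0.00541 and 0.0069 FPKM, and in ES2 siC PAX8 and WT1 were at 0.157 and 0.120 FPKM, so these markers of the labelled origin were at or near 0 in A549, MV3 and ES2, as was CFTR in PANC1. The summed FPKM of a PANC1 library was 977547 to 1191707 in siI1 and 526337 to 756438 in siC, while the ranges were far closer in the other lines. Rescaling all PANC1 libraries to the same sum shifted the median change over all genes tested there, on the log2 scale, from -0.0359 to -0.681.

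AGO1 fell in all 4 lines, AGO2 in ES2, MV3 and PANC1, and the Microprocessor genes DROSHA and DGCR8 in 2 lines and 1 line. DICER1 rose in A549, ES2 and MV3 and TNRC6A in A549 and ES2, while AGO3, TNRC6B and TNRC6C rose in MV3. XPO5 rose in A549. Each line was tested on its own with limma on log2(FPKM + 0.5), and a change is called at an adjusted p under 0.05, with Benjamini-Hochberg adjustment over all tested genes of the line. In A549 1 member was lower and 3 were higher, where 7.83% and 5.93% of all tested genes were called lower and higher and 13.8% in all. In ES2 2 were lower and 2 higher, against 13.0% and 10.5% of all tested genes and 23.5% in all. In MV3 4 were lower and 4 higher, against 19.5% and 16.3% and 35.7% in all. In PANC1 3 were lower and none higher, against 13.4% and 11.3% and 24.8% in all. Of the 40 tests, 19 were called, 10 lower and 9 higher.

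In A549, ES2, MV3 and PANC1 the 10 members had median log2 fold changes of 0.02, 0.14, -0.03 and -0.13, against -0.0128, -0.0193, 0.00977 and -0.0359 for all tested genes. The medians are near 0 because some members were higher and others lower, and they say little of any single gene. The libraries of siC and siI1 did not overlap for 6, 9, 10 and 4 members in the same order of lines, where the share among all tested genes was 34.0%, 42.1%, 50.4% and 43.2%. In bulk RNA, fewer cells that carry a transcript and less of it per cell cannot be told apart.

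**Figure D1:**
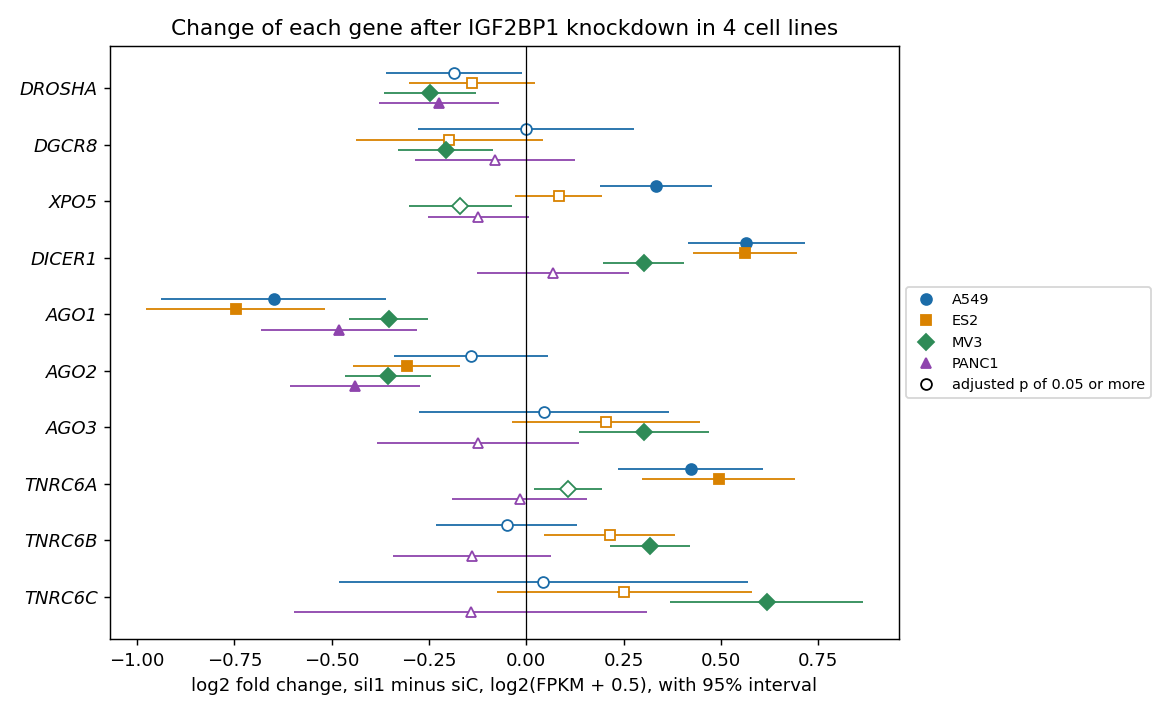
Log2 fold change (siI1 minus siC, log2(FPKM + 0.5)) of each member in each cell line, with the 95% interval of the limma fit as a line and open symbols for changes not past the threshold. AGO1 lies left of 0 in all 4 lines and DICER1 right of it in A549, ES2 and MV3 (0.56, 0.56 and 0.30), while in PANC1 no member rose and the sign of DICER1 there turns under the rescaling to the same sum.

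AGO1 is the member that fell in every line. It encodes an Argonaute that holds microRNAs but is not known for cutting targets, and it lies at chr1:35869808-35930532 (ENSG00000092847), just before AGO3 on the same strand. In A549 its level was 7.43, 6.10 and 7.42 FPKM in siC and 4.74, 3.91 and 4.15 FPKM in siI1. The values were 8.03, 8.56 and 7.82 FPKM against 5.28, 4.17 and 4.54 FPKM in ES2. No siI1 library reached the level of a siC library in either line. AGO1 fell by 38.9% in A549 (log2 fold change -0.65 ± 0.12 SE, limma adjusted p 0.0184) and by 42.7% in ES2 (-0.75 ± 0.09, adjusted p 0.00308).

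In MV3 AGO1 stood at 6.32, 6.40 and 6.52 FPKM in siC and at 5.00, 4.94 and 4.79 FPKM in siI1. In PANC1 it stood at 10.6, 10.7 and 10.8 FPKM in siC and at 6.80, 8.38 and 7.49 FPKM in siI1. The groups were again apart, and the siI1 libraries of PANC1 were spread more widely than the siC libraries. The log2 fold change was -0.35 ± 0.04 in MV3 (limma adjusted p 0.00137) and -0.48 ± 0.08 in PANC1 (adjusted p 0.00931). The share of genes lower in all 4 lines was 2.51% of the 12816 tested in each, and AGO1 was the only one of the 10 among them. In A549, where a library holds 204 to 452 AGO1 reads, the call was lost without siC replicate 1, siC replicate 3, siI1 replicate 2 or siI1 replicate 3, with adjusted p from 0.0598 to 0.07, and the log2 fold change stayed between -0.74 and -0.60.

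AGO2, the Argonaute with slicer activity, lies at chr8:140520156-140635633 (ENSG00000123908). In MV3 it was at 17.8, 18.6 and 19.9 FPKM in siC and at 14.5, 14.6 and 14.5 FPKM in siI1. In PANC1 it was at 9.59, 10.6 and 10.6 FPKM in siC and at 7.08, 7.49 and 7.71 FPKM in siI1. In ES2 the values were 10.8, 10.3 and 10.8 FPKM against 8.56, 8.77 and 8.07 FPKM. These groups did not overlap in any of the 3 lines. AGO2 fell by 0.31 ± 0.06, 0.36 ± 0.05 and 0.44 ± 0.07 on the log2 scale in ES2, MV3 and PANC1 (SE, limma adjusted p 0.0114, 0.00183 and 0.00688). In A549 AGO2 was at 9.20, 9.36 and 9.55 FPKM in siC and at 7.73, 8.49 and 9.16 FPKM in siI1. The highest siI1 library came close to the lowest siC library, and the log2 fold change of -0.14 had a limma adjusted p of 0.323. The ES2 call was lost under the rescaling to the same sum (-0.24, adjusted p 0.117).

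AGO3 and AGO4 encode the other Argonautes and showed lower levels. AGO3 (chr1:35930718-36072500, ENSG00000126070) was at 3.10, 3.06 and 3.55 FPKM in MV3 siC and at 4.24, 4.02 and 4.05 FPKM in siI1. The log2 fold change of 0.30 ± 0.07 passed the test there (limma adjusted p 0.017), but not without siC replicate 1, siC replicate 2 or siI1 replicate 1 (adjusted p 0.0553, 0.0576 and 0.058) and not with rescaling to the same sum (0.0817). In ES2 it was at 1.94, 1.92 and 1.998 FPKM in siC and at 2.15, 2.37 and 2.48 FPKM in siI1, groups that do not overlap, with a log2 fold change of 0.21 and a limma adjusted p of 0.198. In A549 and PANC1 the groups overlapped, with log2 fold changes of 0.05 and -0.12.

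AGO4, the paralog not among the 10 genes, passed the test in no line. Its log2 fold changes were -0.09, 0.04, 0.20 and -0.44 in A549, ES2, MV3 and PANC1, with limma adjusted p of 0.767, 0.828, 0.102 and 0.0523. In PANC1 it was at 3.04, 3.35 and 2.999 FPKM in siC and at 1.95, 2.65 and 1.97 FPKM in siI1, so that all siI1 libraries were below all siC libraries.

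**Figure D2:**
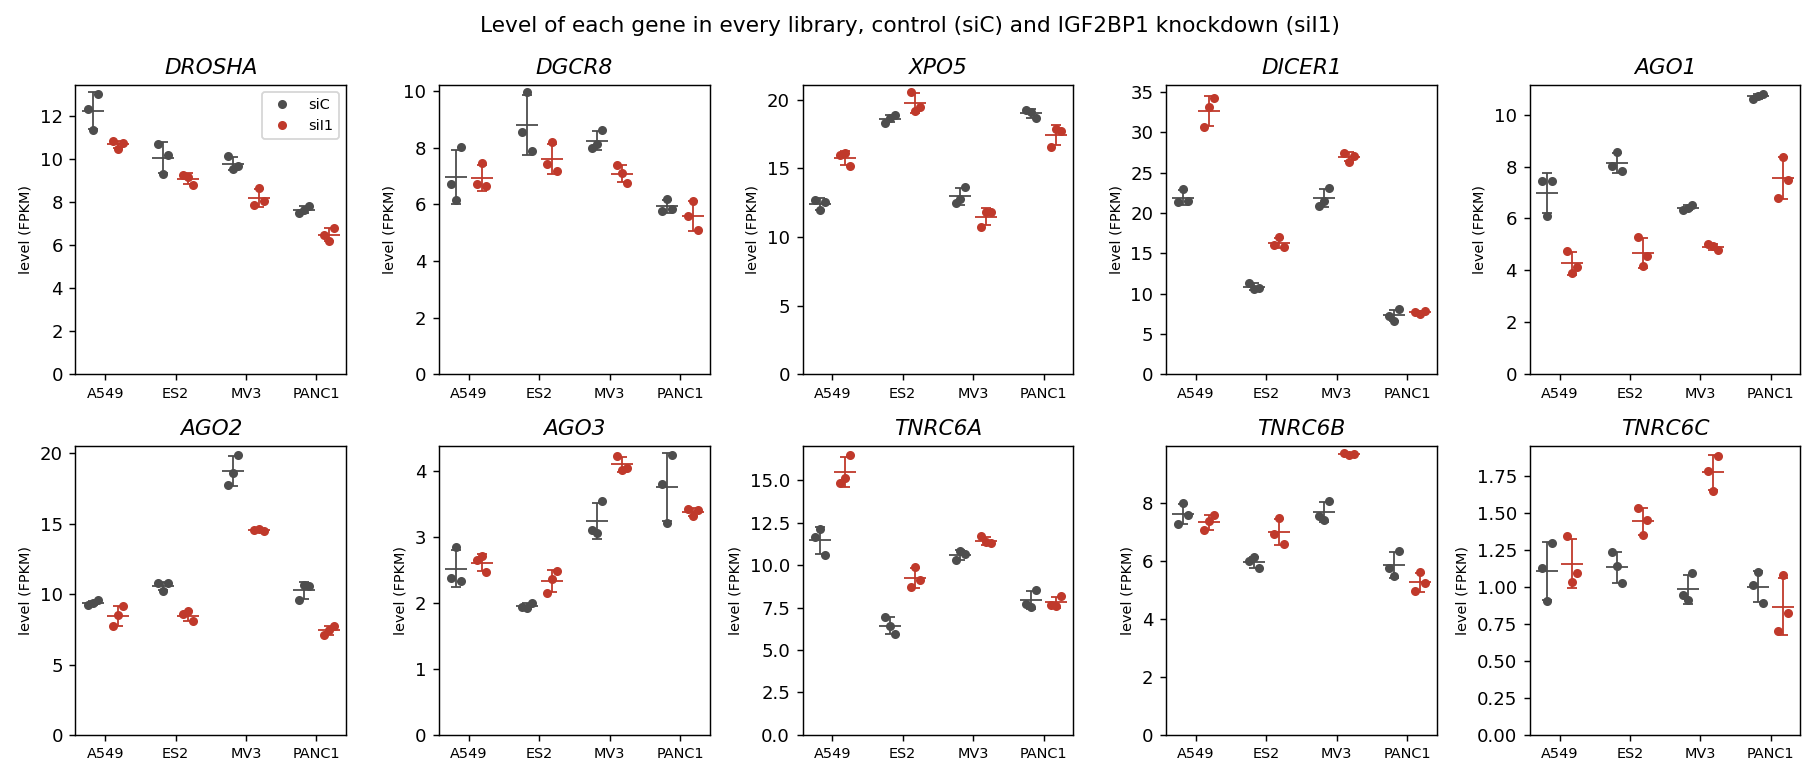
Level (FPKM, linear axis from 0) of each member in every library, siC in grey and siI1 in red, with the mean and SD of the 3 libraries of a group. The siI1 points of AGO1 lie below the siC points in all 4 lines, while those of DICER1 lie above them in A549, ES2 and MV3 and among them in PANC1, where siC spans 6.64 to 8.03 FPKM and siI1 7.49 to 7.79.

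DICER1 encodes the RNase III enzyme that cuts the exported hairpin, and lies at chr14:95086228-95158010 (ENSG00000100697). In A549 it was at 21.4, 22.9 and 21.4 FPKM in siC and at 30.7, 33.1 and 34.2 FPKM in siI1. In ES2 the values were 11.3, 10.6 and 10.7 FPKM against 16.0, 17.0 and 15.8 FPKM. The rise was 49.1% in A549 and 49.9% in ES2, the same log2 fold change of 0.56 (± 0.06 SE in each, limma adjusted p 0.00358 and 0.00127). The 2 groups did not overlap in either line.

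In MV3 DICER1 was at 20.9, 21.5 and 23.1 FPKM in siC and at 27.5, 26.4 and 27.1 FPKM in siI1. The groups did not overlap, and the log2 fold change was 0.30 ± 0.04 (limma adjusted p 0.00282). In PANC1 it was at 7.25, 6.64 and 8.03 FPKM in siC and at 7.71, 7.49 and 7.79 FPKM in siI1, so the siI1 libraries lay inside the siC range. The log2 fold change there was 0.07 (95% interval -0.13 to 0.26, limma adjusted p 0.59). With rescaling to the same sum it was -0.64 (adjusted p 0.0298), which is 0.04 above the median of all genes on that scale. The 3 calls were kept in all 13 alternative fits of their line. The listed length of DICER1 is 12294 bases, where GENCODE 44 has 22151 exonic bases, so its level against other genes depends on the annotation used. The length itself cancels in the fold change, but reads were not counted again with the other annotation.

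DROSHA, the nuclease of the Microprocessor, lies at chr5:31400494-31532196 (ENSG00000113360). Its siI1 libraries were below its siC libraries in all 4 lines. In MV3 it was at 10.1, 9.56 and 9.67 FPKM in siC and at 7.85, 8.64 and 8.03 FPKM in siI1, a log2 fold change of -0.25 ± 0.05 (limma adjusted p 0.00985). In PANC1 it was at 7.50, 7.66 and 7.81 FPKM in siC and at 6.49, 6.18 and 6.78 FPKM in siI1, a log2 fold change of -0.22 ± 0.06 (limma adjusted p 0.047). The PANC1 call was lost in all 6 fits that left out 1 library, siC or siI1, with adjusted p from 0.0653 to 0.127. It was also lost with median-ratio rescaling (0.0739) and with no filter on low values (0.0718). In A549 DROSHA was at 12.4, 11.3 and 13.0 FPKM against 10.8, 10.5 and 10.7 FPKM, and in ES2 at 10.7, 9.31 and 10.2 FPKM against 9.27, 9.18 and 8.79 FPKM. These log2 fold changes of -0.19 and -0.14 did not pass the test (limma adjusted p 0.158 and 0.193), although the groups did not overlap.

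DGCR8 (chr22:20080221-20111877, ENSG00000128191), the RNA-binding partner of DROSHA, fell in MV3, from 7.98, 8.15 and 8.64 FPKM to 7.39, 7.11 and 6.77 FPKM. The log2 fold change was -0.21 ± 0.05 (limma adjusted p 0.0212). That call was lost without siC replicate 2, siC replicate 3, siI1 replicate 2 or siI1 replicate 3 (adjusted p 0.0515 to 0.0681) and with rescaling to the same sum (0.122). In ES2 DGCR8 was at 8.58, 9.98 and 7.90 FPKM in siC and at 7.43, 8.21 and 7.17 FPKM in siI1, with overlap, and the log2 fold change of -0.20 had a limma adjusted p of 0.21. It was -0.00 in A549 and -0.08 in PANC1, again with overlap, and its sign in A549 depended on the scaling. Exons of DGCR8 overlap genes on the opposite strand, TRMT2A among them, over 7.22% of their length and the microRNA genes MIR3618 and MIR1306 lie within it.

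XPO5, which encodes the export receptor of precursor microRNAs, lies at chr6:43522334-43576038 (ENSG00000124571). In A549 it was at 12.7, 11.9 and 12.6 FPKM in siC and at 16.0, 16.1 and 15.2 FPKM in siI1. The rise of 27.0% passed the test (log2 fold change 0.33 ± 0.06, limma adjusted p 0.0171). Without siC replicate 1, siI1 replicate 1 or siI1 replicate 2 the adjusted p was 0.0515, 0.0572 and 0.0665, and with rescaling to the same sum 0.0621. In MV3 the direction was the opposite, with 12.5, 12.8 and 13.7 FPKM in siC and 10.7, 11.8 and 11.9 FPKM in siI1. That log2 fold change of -0.17 had a limma adjusted p of 0.0541, and passed the threshold with median-ratio rescaling (0.0291) and with voom on the recovered reads (0.00523).

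In PANC1 XPO5 was at 19.2, 19.1 and 18.7 FPKM in siC and at 16.6, 17.9 and 17.8 FPKM in siI1, and in ES2 at 18.3, 18.7 and 18.9 FPKM against 20.6, 19.2 and 19.5 FPKM. Neither change passed the test (log2 fold change -0.12 and 0.08, limma adjusted p 0.146 and 0.257), while the groups did not overlap in either line. Exons of XPO5 overlap those of POLR1C on the opposite strand over 4.1% of their length. Whether the counting used strand is not given in the sources used here.

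The TNRC6 genes encode the scaffolds that link Argonautes to the deadenylases, and none of them fell in any line on the deposited scale. TNRC6A (chr16:24610209-24827632, ENSG00000090905) was at 11.7, 12.1 and 10.6 FPKM in A549 siC and at 14.9, 15.2 and 16.5 FPKM in siI1. In ES2 it was at 6.93, 6.40 and 5.92 FPKM in siC and at 8.71, 9.89 and 9.11 FPKM in siI1. The groups were apart in both lines, and TNRC6A rose by 35.4% in A549 and 43.9% in ES2 (log2 fold change 0.42 ± 0.08 and 0.49 ± 0.08, limma adjusted p 0.0183 and 0.00745). The A549 call was lost without siC replicate 1, siC replicate 3, siI1 replicate 2 or siI1 replicate 3, with adjusted p from 0.0513 to 0.059.

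In MV3 TNRC6A was at 10.3, 10.8 and 10.7 FPKM in siC and at 11.7, 11.3 and 11.3 FPKM in siI1, without overlap, and the log2 fold change of 0.11 had a limma adjusted p of 0.0642. In PANC1 it was at 7.70, 7.54 and 8.52 FPKM in siC and at 7.65, 7.62 and 8.16 FPKM in siI1, so the groups overlapped fully. The log2 fold change there was -0.02 with a 95% interval of -0.19 to 0.16.

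TNRC6B (chr22:40044817-40335808, ENSG00000100354) and TNRC6C (chr17:77958703-78108822, ENSG00000078687) rose in MV3 and in no other line. TNRC6B was at 7.57, 7.44 and 8.08 FPKM in MV3 siC and at 9.76, 9.66 and 9.71 FPKM in siI1, a log2 fold change of 0.32 ± 0.04 (limma adjusted p 0.00215). In ES2 it was at 6.003, 6.14 and 5.76 FPKM in siC and at 6.94, 7.50 and 6.61 FPKM in siI1. These groups do not overlap, but the log2 fold change of 0.21 had a limma adjusted p of 0.0742. In A549 and PANC1 the groups overlapped, with log2 fold changes of -0.05 and -0.14.

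TNRC6C was at 0.945, 0.907 and 1.09 FPKM in MV3 siC and at 1.78, 1.65 and 1.88 FPKM in siI1. This rise of 80.4%, a log2 fold change of 0.62 ± 0.10 (limma adjusted p 0.00484), was the largest rise of any member in any line, and rests on 158 to 192 reads per siC library and 371 to 411 per siI1 library. In ES2 TNRC6C was at 1.23, 1.139 and 1.02 FPKM in siC and at 1.53, 1.35 and 1.45 FPKM in siI1, with a log2 fold change of 0.25 (limma adjusted p 0.237). With voom on the recovered reads AGO3, TNRC6B and TNRC6C also passed the test in ES2 (adjusted p 0.0279, 0.00944 and 0.0494). In A549 and PANC1, with 40 to 104 reads per library, the TNRC6C groups overlapped. Exons of TNRC6C overlap those of TMC6 on the opposite strand over 12.3% of their length.

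Levels per length were ordered within each line. In siC, DICER1 stood first in A549 and MV3 (21.9 and 21.8 FPKM) and XPO5 in ES2 and PANC1 (18.6 and 19.01 FPKM). AGO3 was ninth and TNRC6C last in siC of every line, apart from their neighbours in each. XPO5, DROSHA and TNRC6A, the next in A549, did not differ beyond the spread of their libraries, and neither did DICER1, AGO2, DROSHA, DGCR8 and AGO1 in ES2 when each is set beside the next. The tables were normalised per line, so levels are not tested between lines. In siI1 AGO1 stood eighth, next to AGO3, in A549, ES2 and MV3, a place it already held in MV3 siC.

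The level of the Argonautes was then set against that of the TNRC6 scaffolds within each library, which no rescaling of the library changes. The sum of AGO1 to AGO4 was 20.8 ± 0.345 FPKM in A549 siC and 17.2 ± 0.367 in siI1 (SD, n = 3 each), 22.6 ± 0.159 and 17.5 ± 0.506 in ES2, 30.1 ± 1.51 and 25.5 ± 0.243 in MV3, and 27.8 ± 0.784 and 20.6 ± 1.29 in PANC1. The sum of TNRC6A to TNRC6C was 20.2 ± 0.788 and 24.02 ± 1.03 FPKM in A549, 13.5 ± 0.744 and 17.7 ± 0.908 in ES2, 19.3 ± 0.542 and 22.9 ± 0.308 in MV3, and 14.8 ± 0.864 and 13.9 ± 0.561 in PANC1. The Argonaute sum was below every siC library in all siI1 libraries, while the TNRC6 sum was above in A549, ES2 and MV3 and overlapped in PANC1.

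TNRC6 FPKM per Argonaute FPKM was 0.970 ± 0.0541 in siC and 1.40 ± 0.0331 in siI1 in A549, 0.597 ± 0.0296 and 1.01 ± 0.0603 in ES2, 0.641 ± 0.0141 and 0.897 ± 0.00691 in MV3, and 0.531 ± 0.0231 and 0.679 ± 0.0203 in PANC1 (SD, n = 3 each). In all 4 lines, each siI1 library had a higher ratio than all 3 siC libraries of its line. DICER1 per AGO2 went the same way, from 2.34 to 3.87 in A549, 1.02 to 1.92 in ES2, 1.16 to 1.86 in MV3 and 0.714 to 1.03 in PANC1. These ratios are descriptions of members chosen with their values known, and carry no test.

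**Figure D3:**
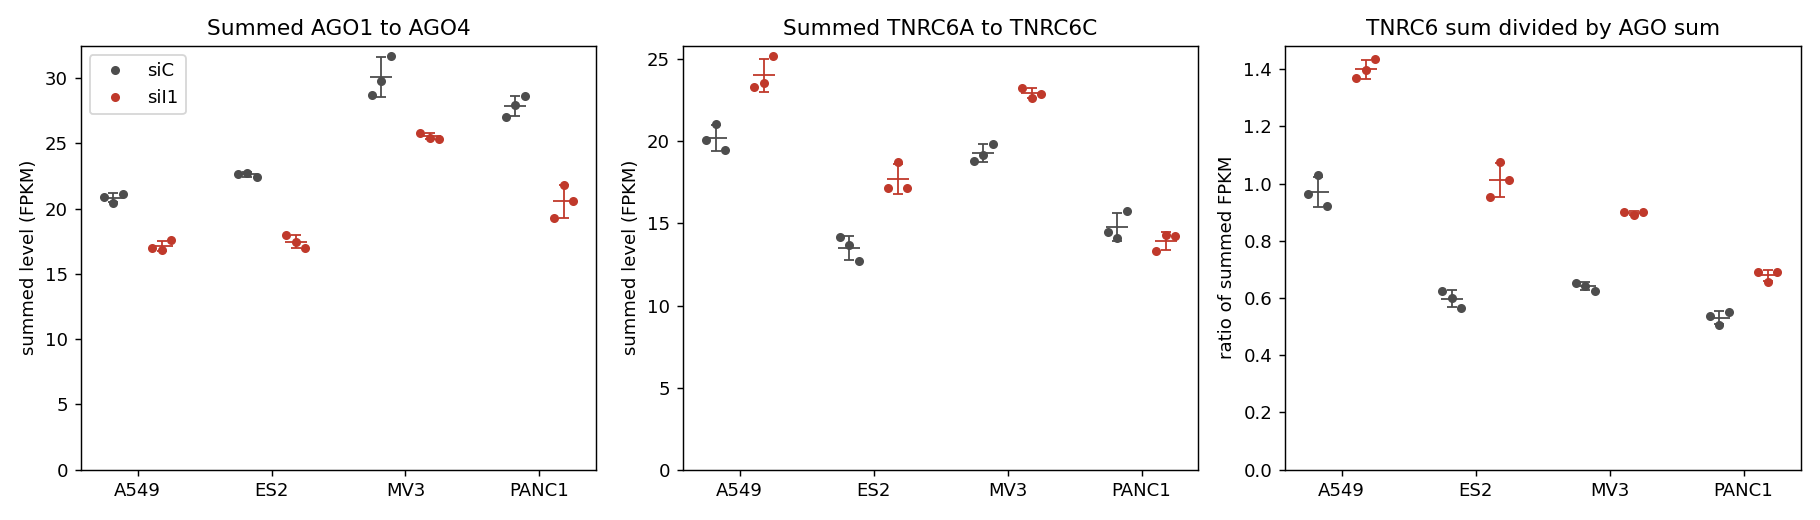
Summed FPKM of AGO1 to AGO4, summed FPKM of TNRC6A to TNRC6C, and the ratio of the second to the first, for each library with the mean and SD of 3 libraries (siC grey, siI1 red, axes from 0). The ratio, which does not depend on library scaling, is higher in siI1 in all 4 lines, from 0.531 to 0.679 in PANC1 and from 0.970 to 1.40 in A549.

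The make-up of each family was compared as well. AGO1 was 33.5% of the Argonaute sum in A549 siC and 24.9% in siI1, and 36.0% and 26.7% in ES2. In MV3 it was 21.3% and 19.2%, and in PANC1 38.5% and 36.7%, the only line where the libraries overlapped. AGO2 per AGO1 was 1.35 ± 0.16 in siC and 2.003 ± 0.324 in siI1 in A549 and 1.31 ± 0.0946 and 1.84 ± 0.247 in ES2, without overlap. It was 2.93 ± 0.122 and 2.96 ± 0.0548 in MV3 and 0.958 ± 0.0478 and 0.988 ± 0.0823 in PANC1, with overlap. AGO2 thus made up more of the Argonaute RNA in MV3, 62.4% in siC, than in the other lines, where it was 36.8% to 46.8%. TNRC6A was 56.7% of the TNRC6 sum in A549 siC and 64.6% in siI1, and 47.4% and 52.2% in ES2. Its share went the other way in MV3, from 55.0% to 49.9%, and in PANC1 it was 53.5% and 56.0% with overlap. TNRC6C made up 5.09% to 8.36% in siC.

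All 24 libraries were also fitted together, with the average of the 4 log2 fold changes and an F test of their difference. The interval of an average measures the spread between libraries and not that between lines. A called average does not show that every line changed. TNRC6B ran from -0.14 in PANC1 to 0.317 in MV3, and TNRC6C from -0.143 to 0.617 in the same lines. On average over the lines AGO1 (-0.56, 95% interval -0.65 to -0.47), AGO2 (-0.31, -0.37 to -0.25), DROSHA (-0.20, -0.26 to -0.14) and DGCR8 (-0.12, -0.22 to -0.03) were lower. DICER1 (0.37, 0.31 to 0.44), TNRC6A (0.25, 0.18 to 0.32) and TNRC6C (0.19, 0.05 to 0.34) were higher, as was TNRC6B (0.09, 0.02 to 0.15), whose sign turned to -0.08 under the rescaling to the same sum. In limma's joint fit over 12816 genes, 28.1% of all genes were lower on average and 20.5% higher. AGO3 (0.11, adjusted p 0.0506) and XPO5 (0.03, adjusted p 0.312) did not pass. The AGO3 average passed in 8 of 31 alternative fits, 5 of them without 1 library and the others with a pseudocount of 0.1 (adjusted p 0.0462), median-ratio rescaling (0.0353) or voom (0.0182). Under the rescaling to the same sum both averages turned negative, that of AGO3 to -0.05 (0.599) and that of XPO5 to -0.15 (0.0166).

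The averages of AGO1, AGO2, DROSHA, DICER1 and TNRC6A held without each library in turn. That of DGCR8 (limma adjusted p 0.0337) was lost without any of 10 libraries, namely siC replicate 3 and siI1 replicates 1 and 3 in A549, siC replicate 2 and siI1 replicates 1 and 3 in ES2, siC replicate 3 and siI1 replicate 3 in MV3, and siC replicate 2 and siI1 replicate 3 in PANC1, with adjusted p from 0.0526 to 0.0665. That of TNRC6C (0.029) was lost without any of 5 libraries, siC replicate 2 or siI1 replicate 1 in A549, siC replicate 2 or siI1 replicate 3 in MV3 or siI1 replicate 2 in PANC1 (0.051 to 0.0563). That of TNRC6B (0.0248) was lost without ES2 siI1 replicate 2 (0.0504). With rescaling to the same sum, DICER1 was the only member higher on average.

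The size of the effect differed between lines for 8 of the 10 members, where 45.0% of all 12816 genes differed. XPO5 had the smallest adjusted p (2.67e-05), followed by DICER1 (0.000184), TNRC6A (0.000379) and TNRC6B (0.000608), from limma's F test. XPO5 ran from -0.17 in MV3 to 0.33 in A549, and DICER1 and TNRC6A were highest in A549 and ES2 and lowest in PANC1. TNRC6C (0.0208), AGO2 (0.0322), AGO3 (0.0359) and AGO1 (0.0496) followed. The test for AGO1 was passed without A549 siC replicate 2, A549 siI1 replicate 1, ES2 siI1 replicate 1 or PANC1 siI1 replicate 1, and lost without any of the other 20 libraries. The tests for AGO2, AGO3 and TNRC6C were lost without 7, 12 and 2 of the 24 libraries. DROSHA (0.647) and DGCR8 (0.434) did not pass. Under the rescaling to the same sum they did (0.000595 and 0.00122), and all 10 members then differed between lines, where 69.6% of all genes did. The 96 h harvest, the sum of FPKM and the strongest fall of IGF2BP1 all belong to PANC1 and cannot be told apart there.

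Likeness among members was measured by Pearson's r over the 24 libraries after centring each line on its mean. These points share the siC and siI1 contrast and the libraries, so r is a description and has no test. DICER1 and TNRC6A had r 0.945, and DICER1 was the gene most like TNRC6A among 9650 protein-coding genes. AGO2 and DROSHA had r 0.836, AGO3 and TNRC6B 0.809, and AGO1 and AGO2 0.777. AGO1 ran against DICER1 (r -0.898) and TNRC6A (-0.83). XPO5 had r between -0.244 and 0.477 with the other members.

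Outside the set, the genes most like AGO1 were SLC37A4 (r 0.967), GUSB (0.961) and DPP7 (0.957), and those most like AGO2 were SLC38A1 (0.954), SOGA1 (0.952) and IPO5 (0.951). DICER1 was most like SMAD5 (0.959), P4HA1 (0.956) and ATL3 (0.956). DROSHA followed ITPRIPL2 (0.913), AGO3 followed OGT (0.907), TNRC6B followed BAZ2B (0.922) and TNRC6C followed CHD6 (0.854). XPO5 was most like DKK1 (0.864). The likeness to the nearest gene was weakest for DGCR8, whose nearest was ACAD9 (0.808), and next for TNRC6C.

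The other genes of the pathway were taken from 7 lists, of which 80 genes are in the tables. Of 74 tested in A549, 9 were lower and 8 higher. The counts were 14 and 7 of 71 for ES2, 21 and 12 of 73 for MV3, and 14 and 3 of 73 for PANC1, to be read against the shares of all genes given above. Only PTGES3 and EDC3 were lower in all 4 lines, where 2.51% of all genes tested in every line were. MIR4435-2HG was the only one higher in all 4, where 0.577% of all genes tested in every line were. EDC3, which encodes an enhancer of mRNA decapping, fell most in A549 (-1.30 on the log2 scale), followed by MV3 (-0.72), ES2 (-0.65) and PANC1 (-0.37; limma adjusted p 0.00226, 0.000152, 0.00276 and 0.029). Its mean level went from 9.16 to 3.44 FPKM in A549. PTGES3, the HSP90 co-chaperone p23, had log2 fold changes of -0.56, -0.58, -0.37 and -0.66 in A549, ES2, MV3 and PANC1 (limma adjusted p 0.0117, 0.00403, 0.000713 and 0.0127).

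Of 14 genes that act with Dicer or in loading of the silencing complex, 2 were lower and 1 higher in A549 and 7 and 2 in ES2. In MV3 they were 7 and 1, and in PANC1 1 and 2. Medians were -0.0943, -0.178, -0.114 and -0.0534 in A549, ES2, MV3 and PANC1. Over all tested genes, 7.83% were lower and 5.93% higher in A549, and 13.0% and 10.5% in ES2. In MV3 these shares were 19.5% and 16.3%, and in PANC1 13.4% and 11.3%. The 7 that fell in ES2 were HSP90AA1, HSP90AB1, HSPA4, HSPA8, FKBP4, AHSA1 and PTGES3, and in MV3 DNAJA2 fell in place of HSPA4, names given after their values were seen. These 8 genes encode chaperones or co-chaperones, which help to load the small RNA duplex into Argonaute, and were not a list of their own. Only FKBP4 and PTGES3 of them were called lower in A549, and only PTGES3 in PANC1. Their log2 fold changes ran from -0.56 (PTGES3) to 0.08 (HSP90AA1) in A549 and from -0.66 (PTGES3) to 0.13 (HSPA8) in PANC1. TARBP2, a partner of DICER1 that binds double-stranded RNA, had the highest mean of this list. It rose in A549 and PANC1 (log2 fold change 0.39 and 0.62, limma adjusted p 0.0318 and 0.00213) and had 0.04 and 0.12 in ES2 and MV3. RAN, the GTPase that exportins need, fell in ES2 and MV3 (-0.40 and -0.42, limma adjusted p 0.0034 and 0.000497), with -0.00 in A549 and -0.14 in PANC1. The helicase gene DDX5, a partner of DROSHA, had log2 fold changes between -0.08 and 0.07 and passed in no line. In the list of 6 such partners of the Microprocessor and of export, none was called in A549, 2 were lower and 1 higher in ES2, 3 lower in MV3 and 2 lower in PANC1.

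Of 13 genes of the CCR4-NOT and PAN2-PAN3 complexes, the deadenylases that TNRC6 proteins call in, 1 of 12 tested was lower in A549, none of 12 was called in ES2, 3 were lower and 3 higher in MV3 and 2 were lower in PANC1. The share of all tested genes called in these lines was 13.8%, 23.5%, 35.7% and 24.8%, so that the most calls fell in the line with the most calls over all genes. CNOT1, the scaffold of CCR4-NOT, fell in A549, MV3 and PANC1 (-0.40, -0.22 and -0.41, limma adjusted p 0.00816, 0.00224 and 0.00996) and had 0.01 in ES2. PAN2 rose in MV3 only (0.47, adjusted p 0.0318), with -0.41 in PANC1 (0.13). Of the 12 decapping and decay genes, 2 were lower and 1 higher in A549, 2 lower in ES2, 2 lower and 1 higher in MV3 and 3 lower in PANC1. LSM1, of the ring that binds deadenylated mRNA, rose in A549 (0.36, limma adjusted p 0.00974) and passed in no other line.

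Of 8 poly(A)-binding and Argonaute-associated genes, 2 were lower and 2 higher in A549, 1 and 1 of 7 tested in ES2, 3 and 1 in MV3, and 4 were lower and none higher in PANC1. LIMD1, whose product binds Argonaute and TNRC6, fell in A549, MV3 and PANC1 (-0.46, -0.23 and -0.32, limma adjusted p 0.0131, 0.00331 and 0.0188) and had -0.13 in ES2. PABPC1, the main cytoplasmic poly(A)-binding protein, rose in A549 and MV3 (0.31 and 0.27, limma adjusted p 0.0445 and 0.00463).

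Of 8 genes of precursor uridylation and turnover, 6 were tested in each line, and 1 was higher in A549, none was called in ES2 and PANC1, and 1 was lower and 2 higher in MV3. LIN28B, which blocks let-7 maturation, rose in A549 from 3.45 to 5.54 FPKM on average and fell in MV3 from 6.13 to 3.48 (log2 fold change 0.62 and -0.73, limma adjusted p 0.0486 and 0.00109). ZSWIM8, part of a ubiquitin ligase that acts on Argonautes, rose in MV3 (0.22, limma adjusted p 0.0179).

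Mature microRNAs were not analysed here, but 19 transcripts of microRNA host genes are in the tables. Of the 16 tested in A549, 2 were lower and 3 higher. The counts were 2 and 3 of 14 in ES2, 2 and 4 of 14 in MV3 and 2 and 1 of 14 in PANC1. They stand against 13.8%, 23.5%, 35.7% and 24.8% of all tested genes called in A549, ES2, MV3 and PANC1. MIR503HG, from which miR-503 is made, rose in A549, ES2 and MV3 (log2 fold change 1.09, 1.39 and 0.88, limma adjusted p 0.02, 0.000276 and 0.00337) and had 0.64 in PANC1 (0.22). MIR31HG fell in A549 (-0.49, limma adjusted p 0.0277) and passed in no other line. Its log2 fold change was -0.65 in ES2 (adjusted p 0.162), -0.06 in MV3 and -0.28 in PANC1. MIR4435-2HG had log2 fold changes of 0.48, 0.87, 0.20 and 0.77 in the order A549, ES2, MV3 and PANC1 (limma adjusted p 0.0392, 0.000312, 0.0475 and 0.00179).

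**Figure D4:**
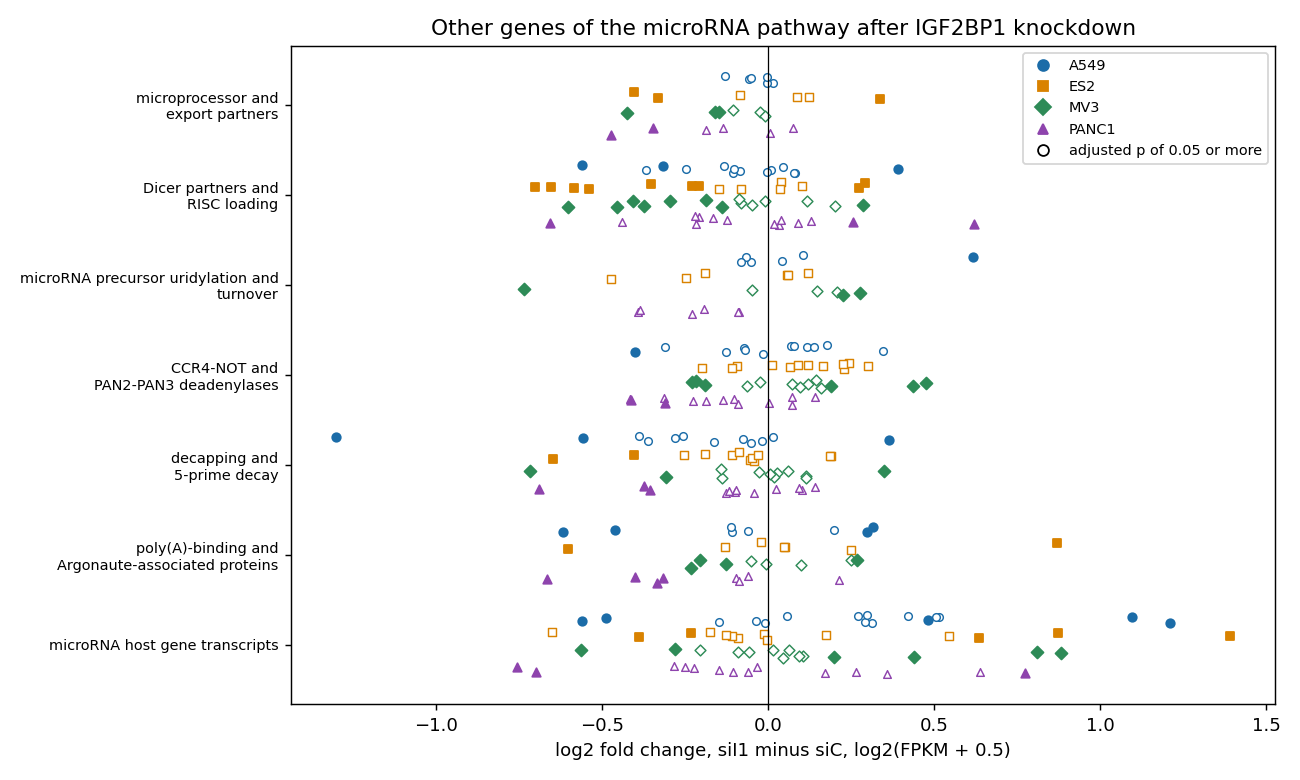
Log2 fold change (siI1 minus siC, log2(FPKM + 0.5)) of each tested gene of the 7 pathway lists, with 1 point per gene and line and open symbols for changes not past the threshold. Called genes lie on both sides of 0, with EDC3 in A549 furthest left (-1.30) and MIR503HG in ES2 furthest right (1.39); in PANC1 the rescaling to the same sum moves the median of all genes to -0.681.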

How the data were processed

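Total RNA of 4 cell lines, depleted of ribosomal RNA and made into directional libraries, was sequenced in 24 libraries, which the study describes as biological replicates of 8 groups. The p-values measure the spread between these libraries. The authors clipped adapters with cutadapt 1.14, aligned to hg38 with HISAT2 2.1.0 and SAMtools 1.5, counted reads per gene with featureCounts 1.5.3 and used edgeR 3.30.3 with TMM (per the submitters' notes and the methods). The values deposited by the authors, 6 columns in the table of each line, were taken as FPKM normalised within the line. The unit was worked out from the values: value times listed length was a whole multiple of 1 step per library for 100% of values (tolerance 0.001 reads), which gave the reads per gene. The deposited log2 fold change, p-value and FDR columns of the authors' own comparison were not used.

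Each line was tested with limma 3.58.1 (R 4.3.3; lmFit and eBayes with trend, two-sided) on log2(FPKM + 0.5), which understates changes of low genes, over the genes that averaged 0.5 FPKM or more across the 6 libraries (18411, 16920, 16380 and 15846 genes for A549, ES2, MV3 and PANC1). Benjamini-Hochberg adjustment covered all tested genes, with a threshold of 0.05. A joint limma fit of 8 groups over 12816 genes gave the average over lines and the F test between lines. The fits were also run on simulated reads with known changes. The spread between simulated libraries was set and not taken from these data, so that run does not show the error rates here. Alternatives were pseudocounts of 0.1 and 1, no filter, 2 rescalings, voom on the recovered reads, the replicate block and leaving out each library. For voom the library totals implied by the deposited scaling were used in place of new TMM factors.

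The 10 members, the pathway lists and the microRNA seeds were chosen with earlier results of these data known. Named genes are the members, IGF2BP1, AGO4, list genes called in the same direction in all 4 lines, and the lowest and highest mean of each list. These means cover only list genes tested in all 4 lines, so genes tested in fewer, such as MIR210HG, were not ranked. For likeness they are the 3 genes of highest r per member, of which some are given. Coordinates, exon overlaps and 3'UTRs are from GENCODE 44, microRNAs from RefSeq, where miR-186-5p had no entry. A missing list gene, MIR29B2CHG, was not analysed here. Replicates differed by more than sampling noise (chi-square per gene 1.54 to 15.1 over 24 pairs). Other tools were Python 3.11.15, numpy 2.4.6, pandas 2.3.3 and matplotlib 3.10.9. A marker gene of the cell line check is not reported here.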

Additional observations from a re-analysis of the deposited data

Results flagged for a closer look

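The effect of the same knockdown differed between the 4 cell lines for the following genes, by limma's F test on the joint fit, and the values are adjusted p over all 12816 genes, of which 45.0% passed. Among the members these were XPO5 (2.67e-05), DICER1 (0.000184), TNRC6A (0.000379), TNRC6B (0.000608), TNRC6C (0.0208), AGO2 (0.0322), AGO3 (0.0359) and AGO1 (0.0496). AGO4 (0.0053) and the target of the siRNAs, IGF2BP1 (9.77e-05), differed as well.

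Of the named pathway genes, EDC3 (6.09e-05) had its largest fall in A549 and its smallest in PANC1. LIN28B (6.11e-05) rose in A549 and fell in MV3. MIR4435-2HG (0.000142) rose least in MV3. CNOT1 (0.000204) fell in the other 3 lines and not in ES2. TARBP2 (0.000908) rose most in PANC1, and RAN (0.0012) fell in ES2 and MV3. LIMD1 (0.00621), PAN2 (0.00734) and LSM1 (0.0449) also differed.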

How the results depend on the processing

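With libraries rescaled to the same sum, 9 members were lower in PANC1 (55.1% of all genes), 1 in ES2 (8.38%), and 1 was higher on average over lines (5.96%), and the pathway genes called were 62 in PANC1 (55.7% of all genes), 21 in MV3 (28.6%) and 13 in ES2 (18.9%). Relative to the median of all genes on that scale (-0.681), the members of PANC1 lay between -0.514 (AGO1) and 0.0474 (TNRC6C). The same rescaling reversed DICER1 in PANC1 (-0.641) and the averages of AGO3 (-0.054), XPO5 (-0.147) and TNRC6B (-0.0825). In A549 DGCR8 turned to 3.12e-05 with a pseudocount of 0.1, 0.0189 with median-ratio rescaling and 0.00366 with voom, and TNRC6A in PANC1 to 0.0136 with median-ratio rescaling. Voom called 5 members higher in ES2 (14.3% of all genes). Without a filter, 11 pathway genes each were called in A549 and PANC1 (7.19% and 9.98% of all genes). The cause of these moves was not tested.

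Without each library in turn, members lower in A549 numbered 0 to 1 (4.32% to 5.62% of all genes) and higher 1 to 3 (2.85% to 4.13%). Members that differed between lines numbered 5 to 8 (41.0% to 46.7% of all genes). Pathway genes called numbered 7 to 11 in A549 (17 with all libraries), where 7.46% to 9.75% of all genes were called. They numbered 21 to 32 in MV3 (27.3% to 34.2% of all genes) and 9 to 14 in PANC1 (14.4% to 24.2%). With all libraries, 13.8%, 35.7% and 24.8% of all genes were called in A549, MV3 and PANC1. DGCR8 in A549 ran from -0.0802 to 0.0982, TNRC6C in A549 from -0.0499 to 0.126 and TNRC6A in PANC1 from -0.04998 to 0.0336. The called changes of the members kept their direction in these fits.

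Same-numbered libraries shared only a number: their deviations correlated at r -0.056 to 0.071, and 6 of 24 libraries correlated best with their own number. With the replicate block, 1 member was higher in A549 (2.06% of all genes), 1 lower in ES2 (8.53%), 5 differed between lines (38.3%), and 4 pathway genes were called in A549 and 10 in PANC1 (5.44% and 18.9%). The calls lost with the block were those of XPO5 and TNRC6A in A549, AGO2 in ES2, DGCR8 in MV3 and DROSHA in PANC1. Their limma adjusted p ran from 0.0579 to 0.0937. The average of TNRC6C and the differences between lines of AGO1, AGO3 and TNRC6C were lost too. XPO5 in MV3 then passed as lower (0.048). Depth limits TNRC6C and AGO4 most, with 40 to 104 and 44 to 207 reads per library in A549 and PANC1.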
